A study of Mus musculus with 20 samples.

Results

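The Wnt ligands, receptors and antagonists were followed as 40 genes: 19 ligands, 12 receptors (Fzd1 to Fzd10, Lrp5 and Lrp6), 8 secreted antagonists (Sfrp1, Sfrp2, Sfrp4, Sfrp5, Dkk1, Dkk2, Dkk3 and Wif1) and Axin2. Their promoters were taken as the bins of 100 bp whose middle lay within 1 kb of any RefSeq transcription start site (TSS) of the gene in mm10. This gave 535 of the 1201951 deposited bins. All 40 genes had at least 1 bin, between 1 bin (Wnt8b and Wnt16) and 34 bins (Wnt5a and Wnt7b), and 7 bins counted for both Wnt3 and Wnt9b.

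Wnt proteins are secreted, lipid-modified signals that bind Frizzled receptors together with the co-receptors Lrp5 or Lrp6. In the canonical branch this binding protects beta-catenin from destruction and switches on targets such as Axin2, whose product feeds back to lower the signal. Secreted frizzled-related proteins and Wif1 capture the ligands, whereas Dickkopf proteins act at the co-receptors. In the bone marrow the pathway is known for its part in self-renewal and lineage choice of hematopoietic stem cells (HSCs), and dense methylation of CpG sites at a start site usually goes with a silent promoter.

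Methylation had been measured by reduced representation bisulfite sequencing, which reads CpG-rich restriction fragments, in 20 samples of HSCs from female C57BL/6J mice. All mice were 3 months old at the start, and treated mice received 5-fluorouracil (5FU), an antimetabolite that kills cycling cells and forces HSCs to divide, by intraperitoneal injection once per 3 weeks. The groups were untreated (0x, n = 4) or had 2 cycles (2x, n = 6), 4 cycles (4x, n = 4) or 10 cycles (10x, n = 6), and HSCs were studied 1 month after the last cycle. The age of each sample at sampling is not given in the labels. The sample labels name the tissue as blood, whereas the methods describe HSCs sorted from bone marrow as Lin-cKit+Sca1+CD34-Flk2-CD150+, and neither ties a sample to a single mouse. Replicates may hence be technical, and p-values cover no other spread than that among the samples.

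According to the methods, group means replaced missing bins, and because coverage is not part of the deposited values, their depth is unknown. The 535 bins were therefore kept in 4 kinds. In 117 bins (21.9%, 33 genes) every group varied and no value other than 0 or 100 was repeated within a group; these are called the tested bins. In 147 bins nothing was repeated but at least 1 group held the same 0 or 100 in all of its samples, and in 70 bins every group did so. The remaining 201 bins (37.6%) held repeated values, meaning that some group had the same number more than once and this number was neither 0 nor 100. A group at 0 or 100 throughout can be several equal measurements or 1 measurement copied, and the files do not tell these apart. Wnt1, Wnt8a, Wnt8b, Wnt16, Fzd2, Sfrp4 and Dkk1 had no tested bin. The label of the cells was checked on marker promoters: Kit (1.83%), Procr (0.145%), Meis1 (1.67%), Hlf (2.29%) and Gata2 (3.53%), all active in HSCs, were nearly unmethylated. The 5 lymphoid markers with bins had a median of 83.1%, and the myeloid and erythroid ones 62.2%. The genes Ly6a, Cd4, Cd8a, Ms4a1, S100a8, Lyz2 and Hba-a1 had no bin.

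The bins on which the results turn differ in how many CpG sites they hold, so their sequences are shown here, with each CpG in capitals. They are read 5′ to 3′ on the plus strand of GRCm38.p6 (the assembly of mm10). The Sfrp2 line shows only the coding stretch of its bin. The last 5 hold 1 to 3 CpG and are among the bins whose deposited group means lay farthest apart.
Sfrp2 at +229 bp, chr3:83766542-83766599, coding start: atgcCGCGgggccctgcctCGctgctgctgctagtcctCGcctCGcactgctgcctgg
Fzd10 at +344 bp, chr5:128601400-128601499, coding: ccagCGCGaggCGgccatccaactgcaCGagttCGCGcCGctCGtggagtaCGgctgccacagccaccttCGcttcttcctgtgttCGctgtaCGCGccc
Wnt4 at -385 bp, chr4:137277200-137277299, upstream: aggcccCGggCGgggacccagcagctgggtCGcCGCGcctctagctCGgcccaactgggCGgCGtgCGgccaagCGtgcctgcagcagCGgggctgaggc
Fzd10 at -456 bp, chr5:128600600-128600699, upstream: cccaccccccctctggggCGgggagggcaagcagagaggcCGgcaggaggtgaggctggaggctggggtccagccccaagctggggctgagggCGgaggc
Wnt3a at -699 bp, chr11:59291400-59291499, upstream: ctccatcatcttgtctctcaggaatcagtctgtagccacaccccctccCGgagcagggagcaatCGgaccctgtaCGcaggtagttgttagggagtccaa
Wnt7a at -997 bp, chr6:91412300-91412399, upstream: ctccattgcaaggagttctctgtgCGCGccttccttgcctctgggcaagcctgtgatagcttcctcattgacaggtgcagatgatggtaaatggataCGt
Wnt5a at +941 bp, chr14:28512400-28512499, intron: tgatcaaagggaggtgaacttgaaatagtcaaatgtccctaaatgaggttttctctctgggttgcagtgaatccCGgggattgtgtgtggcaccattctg
Dkk3 at +646 bp, chr7:112158000-112158099, intron: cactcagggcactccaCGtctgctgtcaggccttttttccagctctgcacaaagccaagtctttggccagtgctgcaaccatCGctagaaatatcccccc
Sfrp4 at +975 bp, chr13:19624100-19624199, intron: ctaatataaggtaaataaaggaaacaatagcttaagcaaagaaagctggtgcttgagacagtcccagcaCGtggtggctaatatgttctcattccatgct

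Most Wnt promoter DNA was unmethylated in HSCs of every group. Averaged over the 20 samples, 371 of the 535 bins (69.3%) were under 5% and 26 (4.86%) were at 80% or more, with a median of 2.55% and a mean of 10.4%. The 183164 bins within 1 kb of a TSS of any gene had a median of 3.46% and a mean of 29.1%, with 55.6% under 5% and 22.7% at 80% or more. The level followed the number of CpG sites in the bin. The 190 Wnt bins with 10 or more CpG had a median of 1.79% and none reached 80%, whereas the 68 bins with 0 to 2 CpG had a median of 20.5% and 15 reached 80%. Promoter bins of all genes with 0 to 2 CpG had a median of 83.5%. Within genes, bins with fewer than 6 CpG had the higher mean in 25 of the 35 genes that had both classes. By position, the mean was 7.22% up to 250 bp from the TSS and 20.9% between 750 and 1000 bp.

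**Figure D1:**
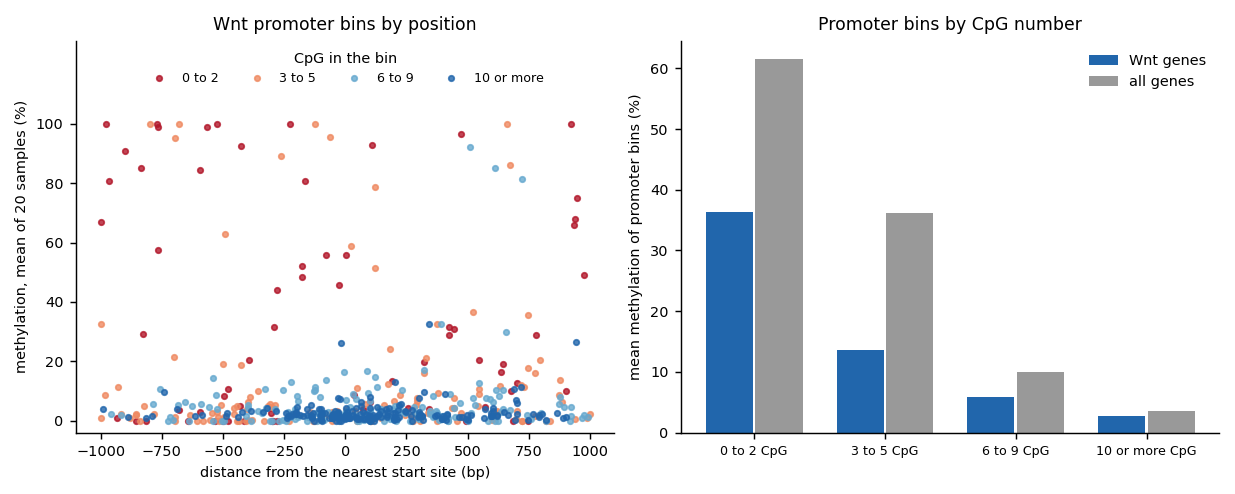
Left, methylation of each Wnt promoter bin (mean of 20 samples, in percent) against its distance from the nearest TSS in bp, coloured by the number of CpG; right, mean methylation in percent of promoter bins by CpG number in Wnt genes and in all genes. Bins with 10 or more CpG lay near 0 (Wnt mean 2.76%), and the bins at or near 100% held few CpG.

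The receptors had the lowest promoters. Of 161 receptor bins, 139 (86.3%) were under 5%, against 169 of 278 ligand bins (60.8%) and 44 of 70 antagonist bins (62.9%). The median number of CpG per bin was 9 in receptors, 7 in ligands and 6 in antagonists. Roles were not compared at equal CpG number. Over all bins of a gene, 9 of the 12 receptors, 7 of the 19 ligands and 5 of the 8 antagonists averaged under 5%. Fzd3 (1.01%), Fzd4 (1.48%), Fzd8 (1.48%), Fzd7 (1.60%) and Fzd2 (1.61%) were among the lowest, as were Sfrp1 (1.80%) and Wif1 (2.33%). Lrp6 averaged 1.71%, and its paralog Lrp5, which also passes the canonical signal, 25%. All 7 Lrp5 bins with 6 or more CpG averaged 1.79% together, and its 3 upstream bins with fewer CpG averaged 79.0%.

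Of the 40 genes, 8 averaged 20% or more: the ligands Wnt8b, Wnt8a, Wnt5b and Wnt10a, the receptors Lrp5 and Fzd6, and the antagonists Sfrp4 and Sfrp5. Wnt8b had 1 bin, at 100% in all 20 samples. Wnt5b, a ligand of the non-canonical branch, had 4 TSS and 26 bins; its 11 bins with 6 or more CpG averaged 2.46% and its 15 others 62.6%. Its group means were 37.5% ± 2.36 (0x), 35.5% ± 4.17 (2x), 38.8% ± 3.42 (4x) and 37.5% ± 1.36 (10x, all ± SD). Fzd6, a receptor mostly linked to planar polarity, averaged between 20% and 21.6% in the 4 groups, with a bin at -899 bp, named after its values were seen, between 51.9% and 100% and bins at its TSS near 0. Axin2 showed the same split within 1 gene, with 19 bins of 6 or more CpG at 2.00% on average and 7 others at 42.3%. Wnt16 had 1 bin, at 0% in every sample.

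**Figure D2:**
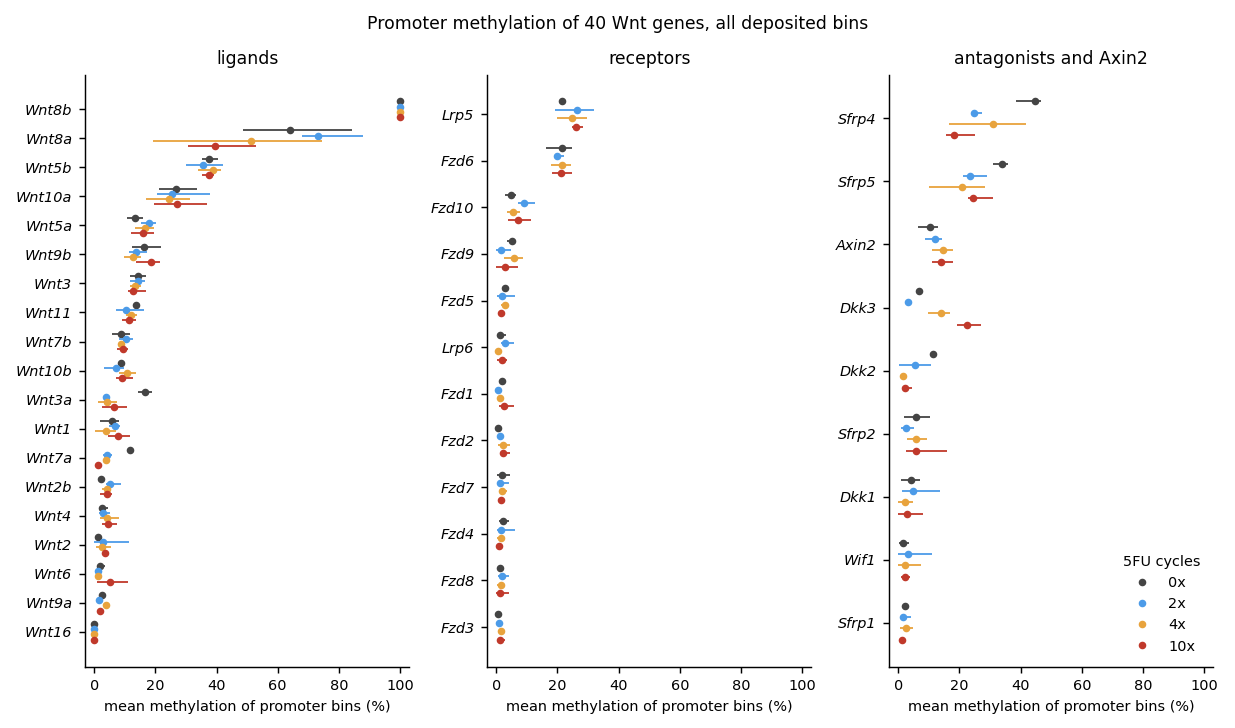
Mean methylation in percent over all deposited promoter bins of each of the 40 genes; points are group means (0x, 2x, 4x, 10x, n = 4, 6, 4 and 6) and lines run from the lowest to the highest sample. Most receptors lay near 0 in every group, whereas Wnt8a, Dkk3 and Sfrp4 had group means far apart, values that rest largely on bins with repeated values or constant groups.

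The question of the design was whether methylation changed with the number of 5FU cycles. Over the tested bins the mean of a sample was 5.69% ± 1.07 (0x), 6.03% ± 0.650 (2x), 5.33% ± 0.926 (4x) and 6.29% ± 0.871 (10x, all ± SD), and the sample ranges of all groups overlapped. Over all 535 bins the group means were 10.7% (0x), 10.1% (2x), 10.4% (4x) and 10.4% (10x). The share of tested-bin values at exactly 0 or 100 differed between samples. Its sample range was 27.4% to 58.1% (0x), 45.3% to 68.4% (2x), 5.98% to 54.7% (4x) and 22.2% to 39.3% (10x). Only the ranges of 2x and 10x did not overlap. The part of this share in the results was not tested.

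No tested bin passed the threshold (limma on percent, adjusted p under 0.05 over all 84131 such bins of the genome, and at least 10 percentage points). The count was 0 of 117 in 2x, 4x and 10x against 0x, where 0.00357%, 0.00713% and 0.0131% of all tested bins passed, and 0 of 117 for the slope over cycles, where 0.00119% passed. With p under 0.05 before adjustment and the same 10 points, 0 bins passed in 2x (background 2.86%), 1 lower bin in 4x (2.85%) and the same 1 lower bin in 10x (4.18%). For the slope, 3 bins had an unadjusted p under 0.05, all upward (background 3.56%). Most differences were small: all but 22, 18 and 16 of the 117 bins lay within 5 points of 0x in 2x, 4x and 10x, with median differences of 0.162, -0.359 and 0.0539 points. The median standard error of a bin's difference was 3.13, 2.55 and 2.30 points.

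**Figure D3:**
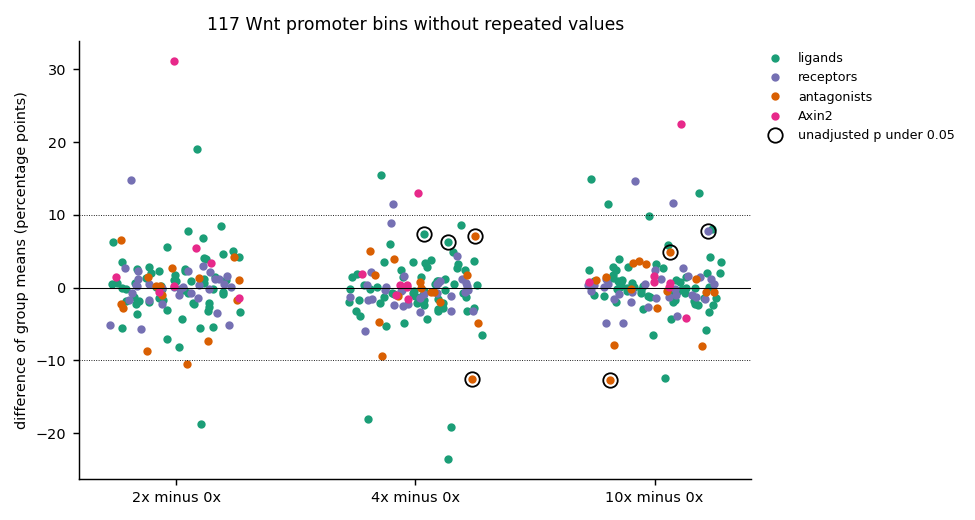
Difference of group means in percentage points (treated minus 0x) for each of the 117 tested Wnt bins in 2x, 4x and 10x, coloured by role; dotted lines mark 10 points and rings an unadjusted p under 0.05. The ringed bin below the lower line in 4x and 10x is Sfrp2 at +229 bp (-12.6 and -12.7 points).

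Averaged per gene over tested bins, 0 of 33 genes passed an adjusted p of 0.05 in any comparison, where 0%, 0% and 0.02% of all genes did in 2x, 4x and 10x, and 0% for the slope. At an unadjusted p under 0.05 the counts were 0, 0 and 2 genes (backgrounds 3.28%, 3.73% and 5.97%) and 0 for the slope (3.65%). By role, the median gene difference in 10x was 0.581 points for 15 ligands, -0.467 for 11 receptors and -0.819 for 6 antagonists, beside -0.00562 over all 15022 genes. Of the 15 ligands, 10 (2x), 7 (4x) and 11 (10x) were above 0x, and of the 11 receptors 5 (2x), 4 (4x) and 3 (10x). The antagonists had 2 (2x), 1 (4x) and 2 (10x) of 6 above 0x. Over all 15022 genes, 8154 (2x), 7251 (4x) and 7499 (10x) were above it. The lists were not tested, and the ligand median in 4x was -0.479 points.

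Among the tested bins of antagonists, Sfrp2 held the clearest difference. Its product is a secreted frizzled-related protein that binds Wnt ligands and, in some tissues, enhances rather than blocks them. The bin at +229 bp spans the end of the 5′ UTR and the start codon, and holds 11 CpG. In 10x samples it had a lowest value of 0%, a median of 0.909% and a highest of 7.78%, against 9.26%, 25%, 13.3% and 12.5% in the 4 0x samples. In 4x samples it had 4.35%, 2.11%, 0% and 3.36%. Every 4x and every 10x sample was below every 0x sample. Over all 84131 tested bins, 1023 (4x) and 699 (10x) had no overlap with 0x and at least 10 points. Over the tested promoter bins of all genes the shares were 0.711% (4x) and 0.441% (10x). Among the 117 tested Wnt bins, 1 did so in each comparison (0.855%), the Sfrp2 bin at +229 bp. The differences were -12.7 ± 3.09 points in 10x (SE, two-sided exact permutation p = 0.00952, the smallest that 6 against 4 samples allow, limma adjusted p = 0.384) and -12.6 ± 3.49 in 4x (exact p = 0.0286, the smallest for 4 against 4, limma adjusted p = 0.975).

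The 2x samples had a lowest and a median value of 0% and a highest of 25% at this bin, so that 1 of them overlapped the 0x group (difference -10.5 points, exact permutation p = 0.152). The 10x difference was -12.3 among samples numbered 1 to 12 in the labels and -11.9 among those numbered from 13. Both had to be below 0, because every 10x sample was below every 0x sample, so the split is no separate evidence. The bin directly upstream, at +129 bp in the 5′ UTR with 17 CpG, ran the other way. Its 10x samples had 4.99%, 6.89% and 10.2% (lowest, median and highest), against 2.99%, 0.265%, 3.26% and 3.51% in 0x. That difference, named after its values were seen, was 4.92 ± 1.50 points with no overlap (exact permutation p = 0.00952, limma adjusted p = 0.567). Downstream, the bin 200 bp from the one at +229 bp had repeated values. Its group means were 0% (0x and 2x), 11.3% (4x) and 22.2% (10x), also higher in 10x than in 0x. The bins at +529 and +629 bp in the first coding exon overlapped between all groups, and the gene's mean over tested bins was 4.71% in 10x against 7.36% in 0x.

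**Figure D4:**
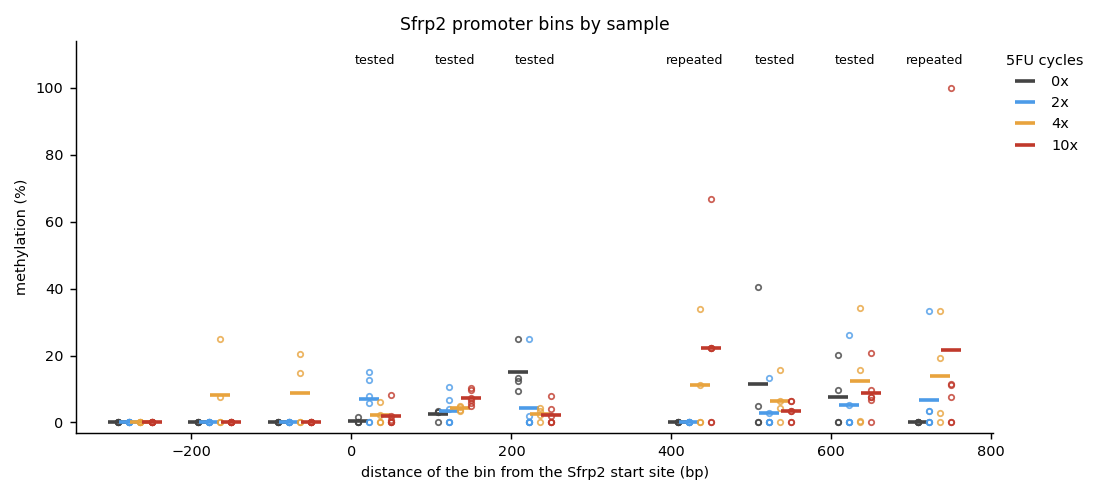
Methylation in percent of the Sfrp2 bins measured from 1 of its start sites, by distance in bp; circles are samples, dashes group means, "tested" marks bins in which every group varied without repeated values and "repeated" those with a recurring value. At +229 bp the 4x and 10x circles lie below the 0x circles, whose lowest was 9.26%; at +129 bp the 10x circles lie above them.

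In their tested bins the other antagonists differed less. Sfrp1, whose product also captures ligands, had a 5′ UTR bin at +148 bp with 16 CpG, named after its values were seen. It had 3.36%, 6.50%, 13.2% and 12.1% in 4x, against 0.533%, 0%, 0.772% and 5.67% in 0x (difference 7.05 ± 2.76 points, exact permutation p = 0.0571, limma adjusted p = 0.975). The 10x samples lay between 0.766% and 5.12% and overlapped 0x. Over tested bins, Sfrp5 averaged 8.47% in 10x against 6.84% in 0x, and Dkk3 1.93% against 3.42%. Wif1, a ligand-binding inhibitor, had 1 tested bin, at 1.17% against 1.80%.

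Among the ligands, 2 genes passed only an unadjusted p. Wnt10a, active in skin and tooth, rested on 1 tested bin at -69 bp. It had 0.680%, 2.48% and 3.50% in 10x (lowest, median and highest), against 1.07%, 0.254%, 0% and 0% in 0x. The difference was 2.01 ± 0.756 points (exact permutation p = 0.0190, limma adjusted p = 0.732). The 4x samples had 7.27%, 7.01%, 1.25% and 20%. All of these are low levels, and the 10x and 0x ranges overlapped. Wnt6, averaged over 2 tested bins, had a difference of -2.94 ± 1.15 points in 10x (exact permutation p = 0.0381, limma adjusted p = 0.740), and over all varying bins its sign turned to 5.66 points.

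At Wnt4, a ligand with roles in kidney and gonad, the upstream bin printed above, with 11 CpG, was named after its values were seen. It had 5.50%, 0.763%, 13.4% and 10.0% in 4x, against 0.288%, 0%, 0% and 0% in 0x (7.35 ± 2.82 points, exact permutation p = 0.0286, limma adjusted p = 0.975). At Wnt5a, the main non-canonical ligand, the intronic bin at -455 bp, likewise named after its values were seen, had 13.2%, 3.93%, 6.07% and 5.45% in 4x, against 0%, 0%, 3.71% and 0% in 0x (6.23 ± 2.44 points, exact permutation p = 0.0286, limma adjusted p = 0.975). In 10x the differences of the Wnt4 and Wnt5a bins were 2.44 and -0.0381 points, and the groups overlapped.

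Other ligand bins, named after their values were seen, had wide spreads in some or all groups. The Wnt9b bin at -178 bp, with 1 CpG, had group means of 53.5% ± 16.2 (0x), 49.2% ± 28.9 (2x), 35.4% ± 40.9 (4x) and 65.0% ± 18.1 (10x, all ± SD). In 4x it had 68.5%, 73.0%, 0% and 0%. The Wnt5b bin at -26 bp averaged 47.9% ± 55.5 in 0x, where the samples had 0%, 91.8%, 100% and 0%. The Wnt5a bin at +45 bp and the Wnt10b bin at +690 bp each had 1 of the 6 10x samples at 100%, and the other 5 at or below 5.88% and 16.7%. In the other groups these bins reached 9.43% and 20% at most.

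Among the receptors, Fzd10 had the smallest p for a slope. Fzd10 is a Frizzled gene with expression in the nervous system and in some tumors, and an antisense gene, Fzd10os, starts within 1 kb of its TSS. The upstream bin at -456 bp was named after its values were seen. It had 5.41%, 9.01% and 20.5% in 10x (lowest, median and highest), against 8.94%, 0%, 1.20% and 0% in 0x. The 2x samples reached 4.00% at most and the 4x samples 3.94%, so that all 10x samples lay above all 2x and 4x samples, while 1 sample of 0x overlapped them. The slope was 0.953 ± 0.233 points per cycle (limma p = 0.000596, adjusted p = 0.826), and the 10x difference was 7.74 ± 3.13 points (exact permutation p = 0.0381, limma adjusted p = 0.748). The bin next to it upstream averaged 3.55% in 10x and 8.39% in 0x, and the one downstream, in which all 2x samples were at 0%, 7.77% in 10x and 1.90% in 0x.

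Fzd1, a receptor of the canonical branch, met the naming rule for its slope at +66 bp in the 5′ UTR (1.50 ± 0.684 points per cycle, limma adjusted p = 0.975). It rested on 2 of the 6 10x samples, at 38.1% and 49.6%; the other 4 were at or below 1.27%, within the range of 0x (0% to 1.46%). Over the 32 tested receptor bins, Fzd1 included, the 10x differences lay between -4.93 and 14.6 points.

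Axin2, the feedback gene, had the largest single differences of the tested bins in 2x and 10x, beside a wide spread in every group. Its upstream bin at -278 bp, with 2 CpG and named after its values were seen, had 0%, 51.3% and 100% in 10x (lowest, median and highest), against 43.2%, 32.7%, 25% and 0% in 0x. The difference was 22.4 ± 17.4 points in 10x (limma adjusted p = 0.859) and 31.2 ± 19.5 points in 2x (adjusted p = 0.998). Its CpG-rich bins stayed low, and the mean over the 7 tested bins was 5.91% (0x), 11.6% (2x), 7.78% (4x) and 9.07% (10x).

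**Figure D5:**
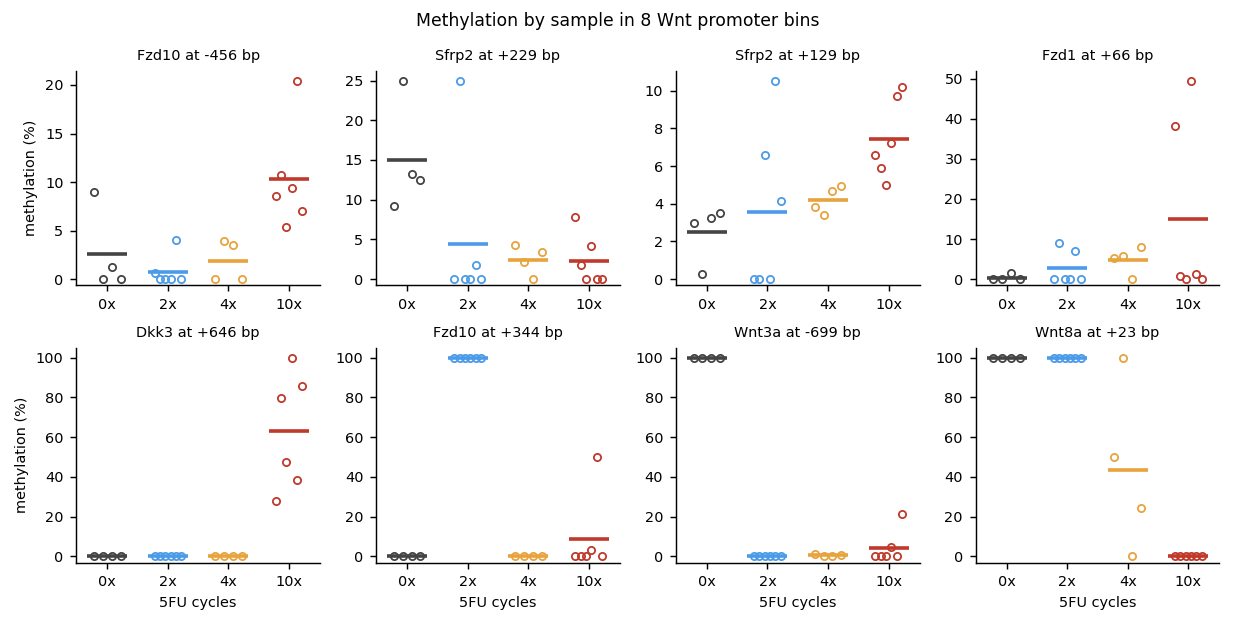
Methylation in percent by sample in 8 Wnt promoter bins (circles; lines are group means) after 0, 2, 4 and 10 cycles. The top row shows tested bins (at Sfrp2 +229 bp, 10x was at 7.78% or less and 0x at 9.26% or more); the bottom row shows bins in which at least 1 group is at 0% or 100% in all of its samples.

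In the 147 bins with a constant group, differences were larger but rested on values that may be copies. When limma was run on all unrepeated bins in which at least 1 group varied, 2 of 264 Wnt bins passed in 2x, 1 in 4x, 2 in 10x and 2 for the slope (backgrounds 0.562%, 0.109%, 0.193% and 0.0765%). They came from 4 bins, in Wnt3a, Wnt8a, Fzd10 and Dkk3. The calls of Wnt3a and Fzd10 in 2x and of Wnt8a in 10x compared 2 constant groups, which leave no spread within groups. Fzd10 and Dkk3 entered the set only through their 10x values, and Wnt8a only through its 4x values. These counts and shares are therefore no test of a change. Wnt3a, a canonical ligand that fetal HSCs of the mouse need for self-renewal, had an upstream bin at -699 bp at 100% in all 0x samples. It was at 0% in all 2x samples, at 1.04%, 0%, 0% and 0.585% in 4x, and at 0%, 0% and 21.1% in 10x (lowest, median and highest), which gave differences from 0x of -100 points (2x), -99.6 points (4x) and -95.8 points (10x). The neighbouring Wnt3a bins did not repeat the pattern in size: at -499 bp the group means were 31.4%, 14.5%, 8.87% and 22.2% in 0x, 2x, 4x and 10x, with repeated values.

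Wnt8a, a ligand of the early embryo with 5 promoter bins, had a bin at +23 bp at 100% in all 0x and 2x samples, at 50%, 100%, 0% and 24.1% in 4x and at 0% in all 10x samples. The next bin, at +123 bp, averaged 100% in 10x and 60.4% in 0x, the opposite order. It had repeated values, and averaged 100% in 2x and 33.7% in 4x. Fzd10 had a coding bin at +344 bp with 13 CpG at 100% in all 2x samples, against 0% in all 0x samples. It was also at 0% in all 4x samples, and in 10x the highest value was 50%. The adjacent bin downstream averaged 2.78% in 2x, against 7.94% in 0x, and the one upstream 0% in both. Dkk3, a divergent Dickkopf member, had an intronic bin at +646 bp at 0% in all 0x, 2x and 4x samples. In 10x it had 27.9%, 63.5% and 100% (lowest, median and highest), a difference of 63.2 points. Its slope is part of the count above, but no p-value is given, since the bin entered the set only through its 10x values. The bin on 1 side, which had repeated values, had group means of 0% (0x and 2x), 23.9% (4x) and 42.8% (10x), and the bin on the other side 15.4% (0x), 0% (2x), 23.4% (4x) and 15.9% (10x).

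Groups with no overlap and at least 10 points apart made up 3 (2x), 2 (4x) and 3 (10x) of the 147 bins (2.04%, 1.36% and 2.04%), where 1.24%, 0.819% and 0.508% of all bins of this kind did. In the 70 constant bins, 61 were at 0% and 9 at 100% in all 20 samples, and no group differed from another. The 61 came from 28 genes, and the 9 from 7 genes.

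In the 201 bins with repeated values, no overlap and at least 10 points occurred in 29 bins in 2x (14 higher and 15 lower), 15 in 4x (7 and 8) and 22 in 10x (11 and 11). These were 14.4%, 7.46% and 10.9% of the Wnt bins, beside 16.3%, 16.5% and 13.7% of all bins with repeated values. Over promoter bins of all genes with repeated values the shares were 12.3%, 12% and 9.48%. The Wnt share was above these in 2x and 10x and below in 4x. The 6 largest are given as values only, since repeated values may not be separate measurements. Dkk2 at +658 bp in a UTR exon, a gene for a co-receptor antagonist, was at 100% in all 0x samples, between 0% and 65.0% in 2x, and at 0% in all 4x and 10x samples. Sfrp4, a ligand-binding antagonist, was at +975 bp at 100% in all 0x samples, 30.4% in all 2x samples, 100% in all 4x samples and 0% in all 10x samples. Its coding bin at +375 bp was at 80.2% in all 0x samples and 33.3% in all 2x samples, with 4x between 0% and 50% and a 10x median of 5.13%. Wnt5a at +941 bp was at 0% in all 0x samples and 100% in all 2x and 4x samples, with 10x between 23.7% and 100%. Wnt7a at -997 bp was at 100% in 0x, at 25% in every 2x and 4x sample and at 0% in 10x. Lrp5 at -765 bp was at 0% in 0x and 77.8% in every 2x sample, with 100%, 84.2%, 0% and 64.2% in 4x and 10x between 50% and 100%. The 6 bins hold between 1 and 6 CpG, and a value shared by all samples of a group shows no spread that a test could use.

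The gene means over all deposited bins include such values. Dkk3 averaged 6.83% ± 0.610 (0x), 3.03% ± 0.763 (2x), 13.8% ± 3.12 (4x) and 22.4% ± 2.98 (10x, all ± SD), with 2x below 0x. Sfrp4 averaged 44.6% (0x), 24.8% (2x), 30.9% (4x) and 18.1% (10x). Wnt7a averaged 11.9% (0x), 4.19% (2x), 3.73% (4x) and 1.24% (10x), and Wnt3a 16.6% (0x), 4.02% (2x), 4.19% (4x) and 6.47% (10x). In their tested bins Wnt7a was at 2.98% in 10x against 2.40% in 0x, Wnt3a at 5.94% against 5.08%, and Dkk3 at 1.93% against 3.42%, while Sfrp4 had none.

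The wider pathway was checked on 55 other Wnt genes, among them the beta-catenin, destruction complex, Tcf and Lef, porcupine and R-spondin genes. All 55 had promoter bins, with a median of 10.4%, and 46 had tested bins. At an adjusted p under 0.05, 0 of 46 passed in any comparison. At an unadjusted p under 0.05, 2 were lower in 2x, 3 were higher and 1 lower in 4x, 1 was lower in 10x, and 1 had a positive and 1 a negative slope, beside the shares of all genes given above (3.28%, 3.73%, 5.97% and 3.65%). Their median differences were -0.166, -0.0203 and -0.267 points in 2x, 4x and 10x, beside 0.229, -0.0871 and -0.00562 points over all genes.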

How the data were processed

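Methylation was measured by reduced representation bisulfite sequencing in 20 HSC samples (4 of 0x, 6 of 2x, 4 of 4x and 6 of 10x). Reads had been trimmed by the authors (Trim Galore 0.4.3, quality above 25), mapped to mm10 (Bismark 0.23.1) and summarised with methylKit 1.22.0, which kept positions of 10 or more reads; positions were averaged per 100 bp bin, and the group mean stood in for a missing bin. The deposited values are percent methylation, 1 per bin and sample, without coverage, so that the depth is unknown and no counting interval or lower limit can be given; a count-based test could not be run.

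Bins were assigned to the RefSeq TSS of GRCm38.p6, the assembly of mm10, by the distance from the middle of the bin to the nearest TSS of the gene, within 1 kb. Bin positions were checked against the genome: 99.99% of the promoter bins of all genes held a CpG within or at the edge of the bin, and 0 chromosomes had a bin past their end. Repeated values are exact recurrences within a group of any number apart from 0 and 100; a single filled sample of a group cannot be recognised. The main set holds the 84131 bins in which no value is repeated and every group varies, which leaves out bins truly at 0 or 100 throughout a group.

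Percent values were fitted with limma 3.58.1 (R 4.3.3, with the data.table package, version 1.17.8), once per treated group together with 0x, and once on all 20 samples for the slope over cycles, and p-values were adjusted by Benjamini-Hochberg over all bins or genes of the genome. A bin was called at an adjusted p under 0.05 and at least 10 points; gene promoters, the mean over tested bins, had no minimum. Single bins were compared by two-sided exact permutation (scipy 1.17.1). Tables were handled in pandas 2.3.3 and numpy 2.4.6 and drawn in matplotlib 3.10.9 (Python 3.11.15). All 40 genes are accounted for. One of the marker genes checked is not reported here. Bins named are those with an adjusted p under 0.05 or, where none, an unadjusted p under 0.05 and at least 10 points, at most 12 in a comparison and 2 in a gene; genes with an unadjusted p under 0.05, at most 8 in a comparison; and the 6 bins with repeated values of largest difference without overlap. Others were named after their values were seen, and are said to be so where named among tested bins. The scripts were tested on simulated data. The members, lists and tests were chosen with earlier results of these data known. Alternatives were other sets of bins, repeated values as missing, a log2 ratio scale, a spread shared by the 4 groups, a variance trend, the label numbers (1 to 12 or from 13) as a block, windows of 500 bp and 2 kb, and leaving out each sample.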

Additional observations from a re-analysis of the deposited data

Results flagged for a closer look

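Within-group gaps were examined for 44 groups of 4 to 6 samples, and 13 held 1 sample far from the others by Dixon's criterion. With normally distributed values chance flags about 1 in 20. A single sample above 0 beside others all at 0 is always flagged, so the 13 cannot be set against that rate. In most of the 13 groups the other samples were at or near 0. In Sfrp2 at +229 bp the 2x sample at 25% stood apart from the next at 1.82%, and at +129 bp the lowest 0x sample was at 0.265%, the next at 2.99%. In Fzd10 at -456 bp the highest samples were 20.5% in 10x (next 10.8%), 4.00% in 2x and 8.94% in 0x (next 1.20%). In Wnt4 at -385 bp 1 sample of 2x was at 19.6% (next 1.56%) and 1 of 0x at 0.288% (next 0%). In Sfrp1 at +148 bp the highest was 4.05% in 2x (next 0%) and 5.67% in 0x (next 0.772%). In Wnt5a at -455 bp it was 4.13% in 2x and 3.71% in 0x, with the next sample at 0% in both groups. In Fzd1 at +66 bp 1 sample of 0x was at 1.46% (next 0%). The Wnt10a promoter mean reached 6.43% in 1 sample of 2x (next 1.86%).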

How the results depend on the processing

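With repeated values as in the main set, 0 Wnt bins and 0 Wnt genes passed an adjusted p of 0.05 in every comparison under the log2 ratio scale, the shared spread (not applicable to the slope), the variance trend, the label numbers as a block and windows of 500 bp and 2 kb, and leaving out each sample in turn gave 0 to 0 throughout. The counts depended on the set of bins. In order of 2x, 4x, 10x and slope, with unrepeated bins in which at least 1 group varied, 2, 1, 2 and 2 bins and 2, 1, 2 and 2 genes passed (over all genes 1.08%, 0.119%, 0.256% and 0.161%). Several of these bins were called between constant groups or entered the set through 1 group, as described above. With repeated values taken as missing, 5, 5, 7 and 3 bins and 2, 2, 5 and 2 genes passed (over all bins 3.47%, 2.43%, 2.18% and 0.325%, over all genes 4.6%, 2.59%, 2.96% and 0.97%). With all varying bins as deposited, 37, 15, 26 and 26 bins and 11, 4, 9 and 6 genes passed (over all bins 14%, 9.96%, 10.8% and 9.23%, over all genes 23%, 14%, 15.8% and 9.38%). In that set, values shared by a whole group leave no spread. The 10x difference of Wnt6 (-2.94) turned to 5.66 with all varying bins, to 2.98 with repeated values as missing and to 1.32 within 2 kb; the cause was not tested. The Sfrp2 bin at +229 bp kept its sign and an unadjusted p under 0.05 in all 17 alternatives for 10x (-14.6 to -9.39 points when 1 sample was left out) and in all 15 for 4x (-14.5 to -9.22). Its adjusted p for 10x ran between 0.0231 and 0.793. The 0.0231 came from all varying bins as deposited, where 10.8% of all bins passed. Its unadjusted limma p was 0.00308 in that set and 0.00243 in the main set. The Fzd10 bin at -456 bp kept its slope in all 26 alternatives, and its 10x difference lost an unadjusted p under 0.05 in 4 of 17, all of them with 1 sample left out. The Fzd1 slope lost it in 10 of 26; it was 0.731 without the 10x sample numbered 32 and 0.983 without the one numbered 11. The Wnt4, Wnt5a and Sfrp1 bins lost it in 7, 6 and 5 of 15. No paired analysis was possible because the sample numbers in the labels are unique and shared by no 2 groups. The number of reads, and so the depth, is unknown, and the number of samples limits what could be seen.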

Other observations

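Axin2, whose transcription reports canonical signalling, held a bin with repeated values at +122 bp, in a UTR exon and intron with 5 CpG, that stood next in size after the 6 described. It had 37.0%, 53.8% and 100% in 10x (lowest, median and highest) and 100%, 59.6%, 100% and 82.6% in 4x, against 30.8%, 0%, 25% and 22.2% in 0x. Samples of 2x lay between 0% and 100%. Wnt10b, a ligand known for its part in bone and in blood cell regeneration, had an intronic bin at +190 bp with 1 CpG at 52.4%, 53.7%, 52.4% and 51.2% in 4x, against 0% in every 0x sample; in 10x it lay between 0% and 35.7%. The values of both bins are given with no test because of the repeated values.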
